A study of Mus musculus with 2 samples.

Results

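The 3 genes described here, Bdh1, Oxct1 and Acat1, encode the enzymes with which heart mitochondria turn ketone bodies into acetyl-CoA. They were taken by symbol from a list of enzymes of ketone use, out of 24542 gene symbols in the deposited transcript table, and all 3 were measured. Ketone bodies are made mainly by the liver from fatty acids when glucose is scarce, and they reach the heart through the blood. There D-beta-hydroxybutyrate is first oxidized to acetoacetate by BDH1, with NAD+ as the electron acceptor. Acetoacetate then takes CoA from succinyl-CoA in the reaction of SCOT, the product of Oxct1, which is the committed step of ketone use and is nearly absent from hepatocytes. The thiolase encoded by Acat1 splits acetoacetyl-CoA into acetyl-CoA for the tricarboxylic acid cycle, and the same enzyme also works in isoleucine breakdown and, in liver, in ketone synthesis.

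The hearts were those of male C57BL/6 mice without NRK-2, a muscle kinase of nicotinamide riboside encoded by Nmrk2, and of littermate controls. Every mouse of both genotypes had undergone permanent ligation of the proximal LAD, the main artery of the left ventricular front wall, and ventricular tissue remote from the scar and its border was taken at 7 days. The labels name no allele for the knockout, and no group without ligation was analysed here. The labels list 1 sample per genotype, and the table holds 3 libraries for each, called here by their column names KO 1 to 3 and control 1 to 3. Since no source used here ties the libraries to separate mice, p-values reflect the spread among 6 libraries only, and that spread may be technical.

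The libraries labelled KO held 26975513 to 33086384 counted reads and the control libraries 22377348 to 22831189. Nmrk2, the targeted gene, stood at 27.9, 0.252 and 0 CPM in the libraries labelled KO 1, 2 and 3, against 15.1, 13.0 and 4.79 CPM in control 1, 2 and 3 (CPM is a read count scaled to library size with TMM, a factor for RNA composition). The library labelled KO 1 therefore goes against its label, and each direction given below rests on libraries of which this is 1. All 13 cardiomyocyte markers examined were detected in every library, while of 6 hepatocyte markers Alb, Apoa1 and Serpina1a had 0 reads in all, Ttr and Apoa2 held 1.16 CPM or less in each library, and Cyp2e1 held 0.876 to 86.4 CPM in the libraries labelled KO and 14.2 to 247.3 CPM in control. The 13 cardiomyocyte markers summed to 50140 to 78120 CPM in the libraries labelled KO and 78730 to 128600 CPM in control, the lowest control value being that of control 3. The 8 fibroblast markers summed to 28660 to 39770 CPM in the libraries labelled KO and 6547 to 18020 CPM in control. The 6 atrial markers summed to 2524 to 3196 CPM in the libraries labelled KO and 175 to 1039 CPM in control. In the libraries labelled KO the sum was made up mostly of Nppa (2350.0 to 3022 CPM). Nppa held 108 to 571.5 CPM in control, and in control 1 it was 442.5 of 999 CPM. Of the others, Myl7 held 127, 1.15 and 0.219 CPM in the libraries labelled KO 1, 2 and 3, against 205, 162 and 0 CPM in control 1, 2 and 3. Myl4 and Sln were likewise high in KO 1, control 1 and control 2 and low in KO 2, KO 3 and control 3, so these 3 genes did not follow the genotype labels. Endothelial markers summed to 1048 to 1330.0 CPM in the libraries labelled KO and 1012 to 1345 CPM in control. The part of these shifts in the results below was not tested. In bulk tissue, fewer cells of a type and less RNA per cell cannot be told apart. Leukocyte markers summed to 1272 to 2149 CPM in the libraries labelled KO, 512 and 747 CPM in control 1 and 2 and 1803 CPM in control 3. Adipocyte markers summed to 308 to 774 CPM in the libraries labelled KO, 606 and 404 CPM in control 1 and 2 and 1356 CPM in control 3, with Plin1 and Lep at 0 in at least 1 library. Of these sums Fabp4 alone held 306 to 491 CPM in the libraries labelled KO and 347 to 491 CPM in control. Adipoq held 28.5, 48.2 and 0.219 CPM in KO 1, 2 and 3, against 11.6, 8.53 and 131 CPM in control 1, 2 and 3. Cyp2e1, listed above as a hepatocyte marker, ranked the 6 libraries in the same order as Adipoq. Control 3 thus stood apart from the other controls, and leaving it out had a large effect on the number of calls. Values without it are given below beside the results for the 3 enzymes and the pathway genes that it moves across the threshold. Of the markers, edgeR's test without control 3 called 7 of 13 cardiomyocyte genes lower, against 12.9% of all genes. It called 6 of 7 leukocyte, 4 of 8 fibroblast and 2 of 6 atrial genes higher, against 1719 of 14775 genes. With all 6 libraries these counts were 0, 0, 1 and 0.

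Fitted levels of all 3 ketone enzymes were lower with the KO label, the mean of Acat1 being 0.402 and that of Oxct1 0.527 times that of control, but none passed the test over all genes. For Oxct1 and Acat1 the highest library labelled KO stayed below the lowest control, and Bdh1 overlapped between the genotypes. In the edgeR quasi-likelihood fit, with p-values adjusted over 14466 genes by Benjamini-Hochberg, 0 of the 3 passed an adjusted p of 0.05, against 3.7% of all genes tested (2.61%, or 378 genes, higher and 1.09%, or 157, lower). A lower fitted level on its own was seen in 49.0% of all genes. At an unadjusted p under 0.05 the count was 2 of 3, against 25.9% of all genes. DESeq2 called 2 of 3, Oxct1 and Acat1, both lower, with 15.5% of its 15000 genes called in either direction and 8.29% called lower. Groups that do not overlap, with KO lower, were seen in 2 of the 3 enzymes and in 14.5% of all genes tested, and 30.9% of all genes did not overlap in either direction. The log2 fold changes lay at -0.49, -0.92 and -1.31, while the median of all genes tested was 0.01.

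**Figure D1:**
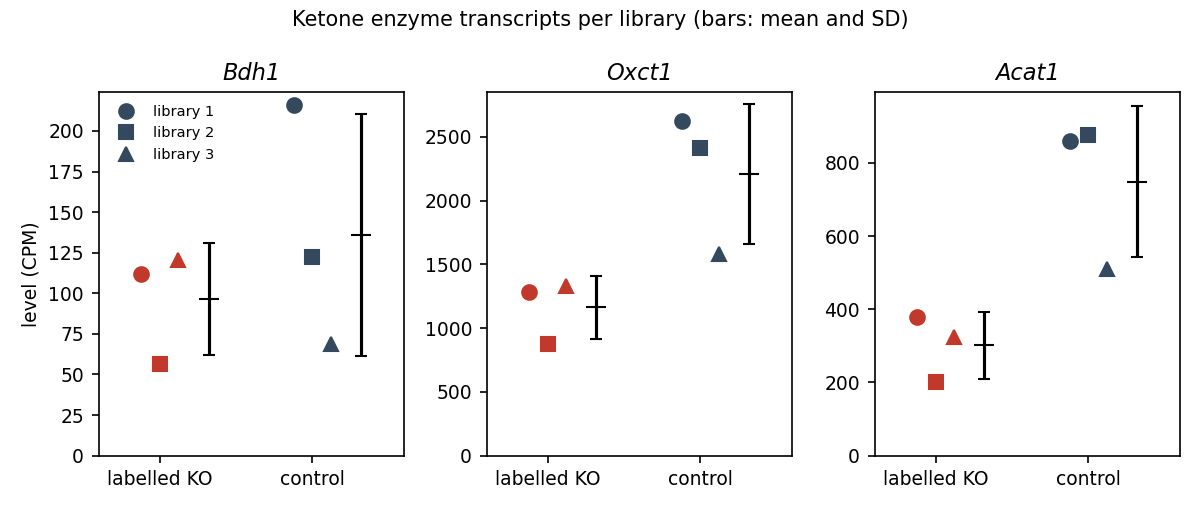
Level of Bdh1, Oxct1 and Acat1 in CPM (vertical axes, each starting at 0) in the 3 libraries labelled KO and the 3 control libraries. Symbols mark the library number, and the bars give mean and SD. Oxct1 and Acat1 of every library labelled KO lie below control 3, the lowest control, while Bdh1 of control 3 (68.6 CPM) lies among the libraries labelled KO.

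Compared per length, the 3 transcripts kept 1 order in all 6 libraries. Deposited FPKM values, which are scaled to transcript length, averaged 339 ± 62.0 for Oxct1 in the libraries labelled KO and 594 ± 102 in control (SD, n = 3 libraries each, also below). Acat1 averaged 90.4 ± 24.99 FPKM in the libraries labelled KO and 208 ± 41.4 FPKM in control. Bdh1 was the least abundant, at 31.3 ± 10.5 FPKM in the libraries labelled KO and 40.3 ± 20.0 FPKM in control. Within each genotype the ranges of the 3 genes did not overlap. Oxct1 ranked 132nd to 193rd of 24542 genes by FPKM in the libraries labelled KO and 77th to 103rd in control, so its transcript was among the abundant ones of this tissue. Acat1 ranked 545th to 936th in the libraries labelled KO and 293rd to 370th in control, and Bdh1 1674th to 3526th in the libraries labelled KO and 994th to 2899th in control. Of the FPKM of the 3 genes together, Acat1 made up 18.1% to 21.7% in the libraries labelled KO and 23.7% to 26.2% in control. Oxct1 made up 71.3% to 76.4% in the libraries labelled KO and 69.9% to 72.4% in control.

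Bdh1 (gene ID 71911) encodes D-beta-hydroxybutyrate dehydrogenase, an enzyme of the inner mitochondrial membrane that needs phosphatidylcholine for its activity. It lies on the plus strand of chromosome 16, and the table lists 2 RefSeq transcripts (mm10). Variant 1 spans chr16:31422297-31458901 and variant 2 chr16:31428753-31458901, both with 7 exons in GENCODE M21, and their starts are 6456 bases apart. The deposited counts gave nearly all reads to variant 2, whose start lies inside the span of variant 1. Variant 1 had 21 of 3298 Bdh1 reads in the library labelled KO 3, a share of 0.637% (95% Clopper-Pearson interval 0.395% to 0.972%), and 25 of 1690 reads in control 3, a share of 1.48% (0.960% to 2.18%). In the other 4 libraries it had 0 reads, which allows a share of 0.0682% to 0.148%, and these intervals and limits cover counting error only. The 2 libraries with reads of variant 1 thus come from both genotypes. No source used here says how reads were divided between isoforms, so these shares are less certain than the gene sum. The 250 bases before each start (RefSeq, GRCm38.p6, plus strand, CpG dinucleotides in capitals) are shown because they are the upstream sequences of the start that the counts favour and of the one that they hardly use.
Variant 1 start, chr16:31422047-31422296: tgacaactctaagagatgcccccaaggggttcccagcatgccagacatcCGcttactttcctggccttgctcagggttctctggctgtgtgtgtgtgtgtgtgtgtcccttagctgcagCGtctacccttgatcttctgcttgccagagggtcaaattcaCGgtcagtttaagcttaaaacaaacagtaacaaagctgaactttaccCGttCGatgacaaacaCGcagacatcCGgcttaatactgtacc
Variant 2 start, chr16:31428503-31428752: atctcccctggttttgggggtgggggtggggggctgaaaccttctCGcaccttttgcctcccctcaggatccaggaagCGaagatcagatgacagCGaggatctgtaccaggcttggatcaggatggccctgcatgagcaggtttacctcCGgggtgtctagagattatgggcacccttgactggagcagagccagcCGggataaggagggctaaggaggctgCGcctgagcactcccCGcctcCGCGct
The window of variant 2 holds 9 CpG dinucleotides and 60.8% G and C, and that of variant 1 holds 7 and 49.6%, beside medians of 6 and 52.4% over 32851 windows of the same length in the RefSeq table. A search of both strands for AGGTCA (a half-site of nuclear receptors), CCAAT and GGGCGG (the GC box) found 0 matches in these windows or in the window of Oxct1 at chr15:4026178-4026427, while 14.0%, 33.8% and 32.7% of all windows hold them.

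Bdh1 held 112, 56.7 and 120.4 CPM in the libraries labelled KO 1, 2 and 3, against 216, 123 and 68.6 CPM in control 1, 2 and 3. The highest value was that of control 1 and the lowest that of KO 2, and control 3 was lower than both KO 1 and KO 3. The means were 96.4 ± 34.6 CPM in the libraries labelled KO and 136 ± 74.6 CPM in control, with coefficients of variation of 35.9% in the libraries labelled KO and 54.9% in control. By edgeR, Bdh1 was not called (log2 fold change -0.49, SE 0.45, 95% interval -1.56 to 0.57, adjusted p = 0.527). Its fitted direction rested on control 1, the log2 fold change being 0.01 without that library. Its size also moved with others, to -0.22 without KO 2 and -0.81 without control 3.

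Oxct1 (gene ID 67041) encodes succinyl-CoA:3-ketoacid CoA transferase, whose inherited loss in humans causes episodes of ketoacidosis. It spans chr15:4026428-4155344 on the plus strand with 17 exons, and the table lists 1 transcript. Its level was 1282, 879 and 1328 CPM in the libraries labelled KO 1, 2 and 3, against 2624, 2415 and 1583 CPM in control 1, 2 and 3. KO 2 was the lowest library, and control 3 stood nearer to KO 3 than to the other control libraries. The means were 1163 ± 247 CPM in the libraries labelled KO and 2207 ± 550.4 CPM in control. Oxct1 missed the threshold of edgeR's test (log2 fold change -0.92, SE 0.27, 95% interval -1.56 to -0.29, adjusted p = 0.0944). Without control 3 it passed, with a log2 fold change of -1.11 and adjusted p = 0.0222, and DESeq2 gave it an adjusted p of 0.00361. Leaving out any other single library gave edgeR adjusted p = 0.161 (without KO 3) to 0.288 (without control 2). It was 0.195 without KO 1 and 0.229 with a block for the library number.

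Acat1 (gene ID 110446) encodes the mitochondrial acetoacetyl-CoA thiolase. Its single listed transcript spans chr9:53580522-53610350 on the minus strand with 12 exons. The libraries labelled KO 1, 2 and 3 held 378, 201 and 324 CPM, against 861, 876 and 510 CPM (control 3) in the control libraries. Here too KO 2 was the lowest library and control 3 the lowest of the controls, with a gap between 378 CPM, the highest library labelled KO, and control 3. The means were 301 ± 90.7 CPM in the libraries labelled KO and 749 ± 207 CPM in control. Acat1 had the lowest log2 fold change of the 3 (-1.31, SE 0.31, 95% interval -2.04 to -0.58) and missed the threshold of edgeR's test (adjusted p = 0.0664). It passed without control 3 (log2 fold change -1.53, adjusted p = 0.0177), with DESeq2 (adjusted p = 0.000312), with limma on log2(FPKM + 1) (log2 fold change -1.21, adjusted p = 0.0424) and when genes under a mean of 10 CPM were left out (adjusted p = 0.0468). Leaving out any other single library gave edgeR adjusted p = 0.136 (without KO 1) to 0.228 (without control 2). With a block for the library number it was 0.194. Without control 3, 24.6% of all genes passed and 12.9% passed with a lower level, against 2 of the 3 ketone enzymes.

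**Figure D2:**
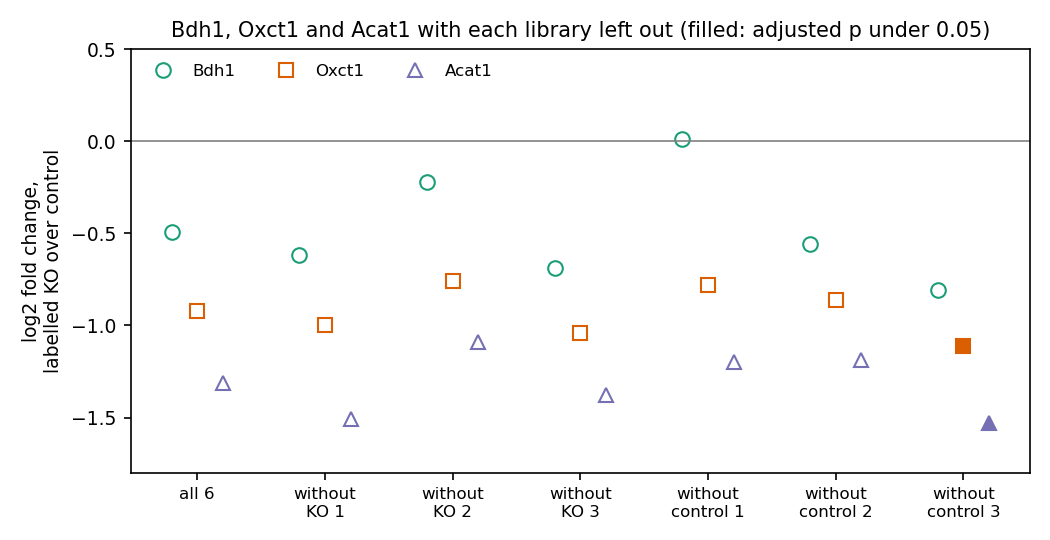
Log2 fold change of Bdh1, Oxct1 and Acat1 (vertical axis, labelled KO over control) with all 6 libraries and with each library left out in turn (horizontal axis). Filled symbols mark an adjusted p under 0.05 in edgeR's test, which Oxct1 and Acat1 reached without control 3, while Bdh1 lay at 0.01 without control 1.

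The 3 enzymes did not shift by the same amount in every library. On the log2(CPM + 1) scale, Bdh1 minus Acat1 was -1.75, -1.81 and -1.42 in the libraries labelled KO 1, 2 and 3, against -1.99, -2.83 and -2.88 in control 1, 2 and 3. The groups did not overlap, and the difference of 0.91 between their means had p = 0.10 by a two-sided exact permutation test over libraries, the smallest value that 3 against 3 allow (0.15 adjusted over 3 pairs). Oxct1 minus Acat1 was 1.97 ± 0.19 in the libraries labelled KO and 1.57 ± 0.09 in control, again without overlap (difference 0.40, exact permutation p = 0.10, 0.15 adjusted). Bdh1 minus Oxct1 was -3.63 ± 0.26 in the libraries labelled KO and -4.13 ± 0.48 in control, with overlap (difference 0.50, exact permutation p = 0.20, adjusted 0.20). Without control 3 the differences were 0.75 for Bdh1 minus Acat1, 0.44 for Oxct1 minus Acat1 and 0.31 for Bdh1 minus Oxct1. Across the 6 libraries, Pearson's r of log2(CPM + 1) was 0.988 between Oxct1 and Acat1, 0.768 between Bdh1 and Oxct1 and 0.699 between Bdh1 and Acat1. These are descriptions over 6 libraries that share the split by genotype.

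Set beside other genes of cardiomyocytes, Acat1 lay further below the markers in all libraries labelled KO than in the controls. Acat1 minus the mean of the 13 cardiomyocyte markers was -3.25, -3.61 and -3.60 in the libraries labelled KO 1, 2 and 3, against -2.89, -2.73 and -2.78 in control 1, 2 and 3, on the log2(CPM + 1) scale. Oxct1 minus the same markers was -1.52 ± 0.05 in the libraries labelled KO and -1.23 ± 0.08 in control. Neither gene's groups overlapped (differences -0.69 and -0.28, exact permutation p = 0.10 for each, 0.20 adjusted over 6 comparisons). Bdh1 minus the markers overlapped, at -5.15 ± 0.24 in the libraries labelled KO and -5.37 ± 0.42 in control (difference 0.22, exact permutation p = 0.50, adjusted 0.50). Without control 3 the differences were -0.68 for Acat1, -0.24 for Oxct1 and 0.07 for Bdh1. Of the 13 markers 12 had a lower fitted level, against 49.0% of all genes tested, and Myh7 a higher one (log2 fold change 1.81). Myh7 held 981, 2057 and 2668 CPM in the libraries labelled KO 1, 2 and 3, against 883, 418 and 321 CPM in control 1, 2 and 3. It raises the marker mean in the libraries labelled KO relative to control, so part of the differences of Acat1 and Oxct1 comes from Myh7. Whether the small difference of Oxct1, or its lack of overlap, holds without Myh7 was not tested. The median log2 fold change of the 13 markers was -0.70.

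Against 33 nuclear genes of oxidative phosphorylation, each of which had a negative log2 fold change (median -1.02), Oxct1 overlapped between the genotypes. Oxct1 minus their mean was 1.75, 1.93 and 1.92 in the libraries labelled KO 1, 2 and 3, against 1.83, 1.67 and 1.87 in control 1, 2 and 3, a difference of 0.08 between the means (exact permutation p = 0.50, adjusted 0.50). Acat1 minus that mean was -0.10 ± 0.10 in the libraries labelled KO and 0.22 ± 0.02 in control, without overlap (difference -0.33, exact permutation p = 0.10, adjusted 0.20). Bdh1 minus that mean was -1.76 ± 0.24 in the libraries labelled KO and -2.34 ± 0.50 in control, with overlap (difference 0.58, exact permutation p = 0.20, adjusted 0.30). Without control 3 the differences were 0.12 for Oxct1, -0.32 for Acat1 and 0.43 for Bdh1. Of the 33 genes 0 passed edgeR's test, while all 33 had an unadjusted p under 0.05, against 25.9% of all genes. DESeq2 called all 33 lower, against 8.29% of all genes, and edgeR without control 3 called all 33 lower, against 12.9%. Limma on log2(FPKM + 1) called 2 lower, against 335 of 14466 genes.

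**Figure D3:**
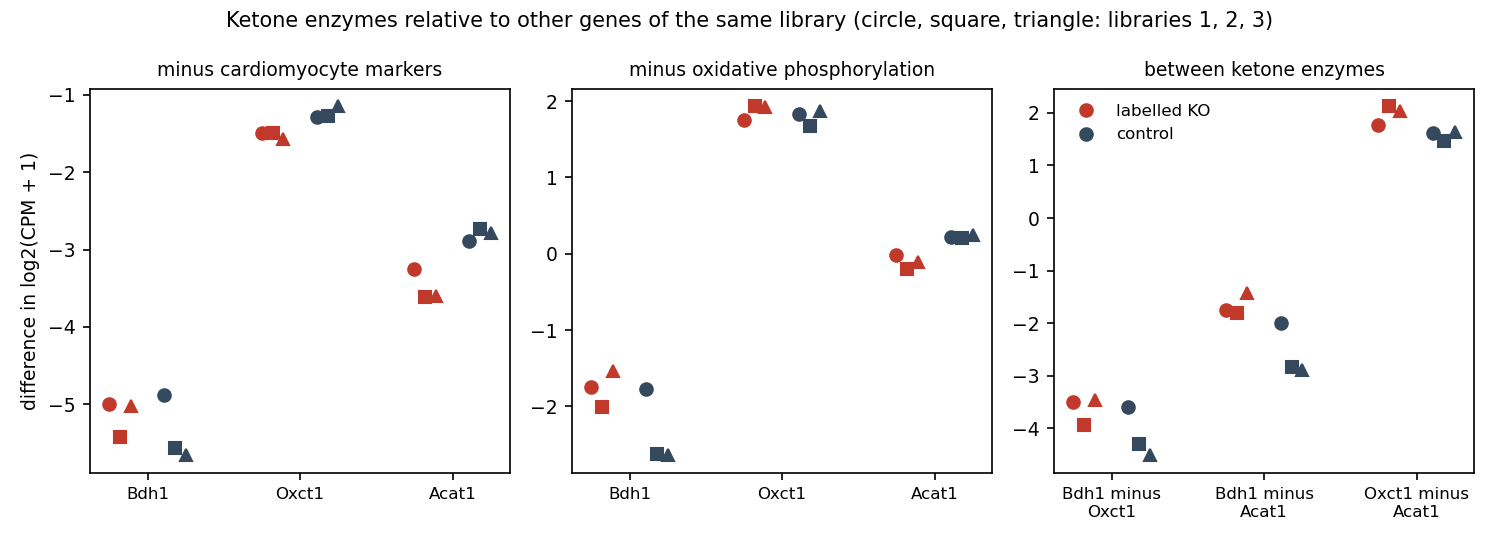
Difference in log2(CPM + 1) within each library (vertical axes) between each ketone enzyme and the mean of 13 cardiomyocyte markers (left), between each and the mean of 33 oxidative phosphorylation genes (middle), and between pairs of the enzymes (right). Red symbols are libraries labelled KO and dark ones control; Acat1 lies lower in the libraries labelled KO in both the left and the middle panel, while Oxct1 overlaps in the middle panel.

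Around these enzymes, 31 genes of ketone transport, succinyl-CoA handling, related enzymes and regulators were examined in 5 lists, and 28 of them had enough reads for the test. Of the 28, 1 rose and 2 fell by edgeR's test, against 2.61% and 1.09% of all genes tested. A lower fitted level was seen in 21, against 49.0% of all genes, and a higher one in 7. The median log2 fold change of the 28 was -0.68. DESeq2 called 1 higher and 14 lower, against 8.29% of all genes called lower. Without control 3, 1 rose and 17 fell, against 12.9% of all genes called lower, and without any other single library 0 passed. Groups did not overlap, with KO lower, in 15 of the 28, against 14.5% of all genes tested, and with KO higher in 1, against 16.4%.

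**Figure D4:**
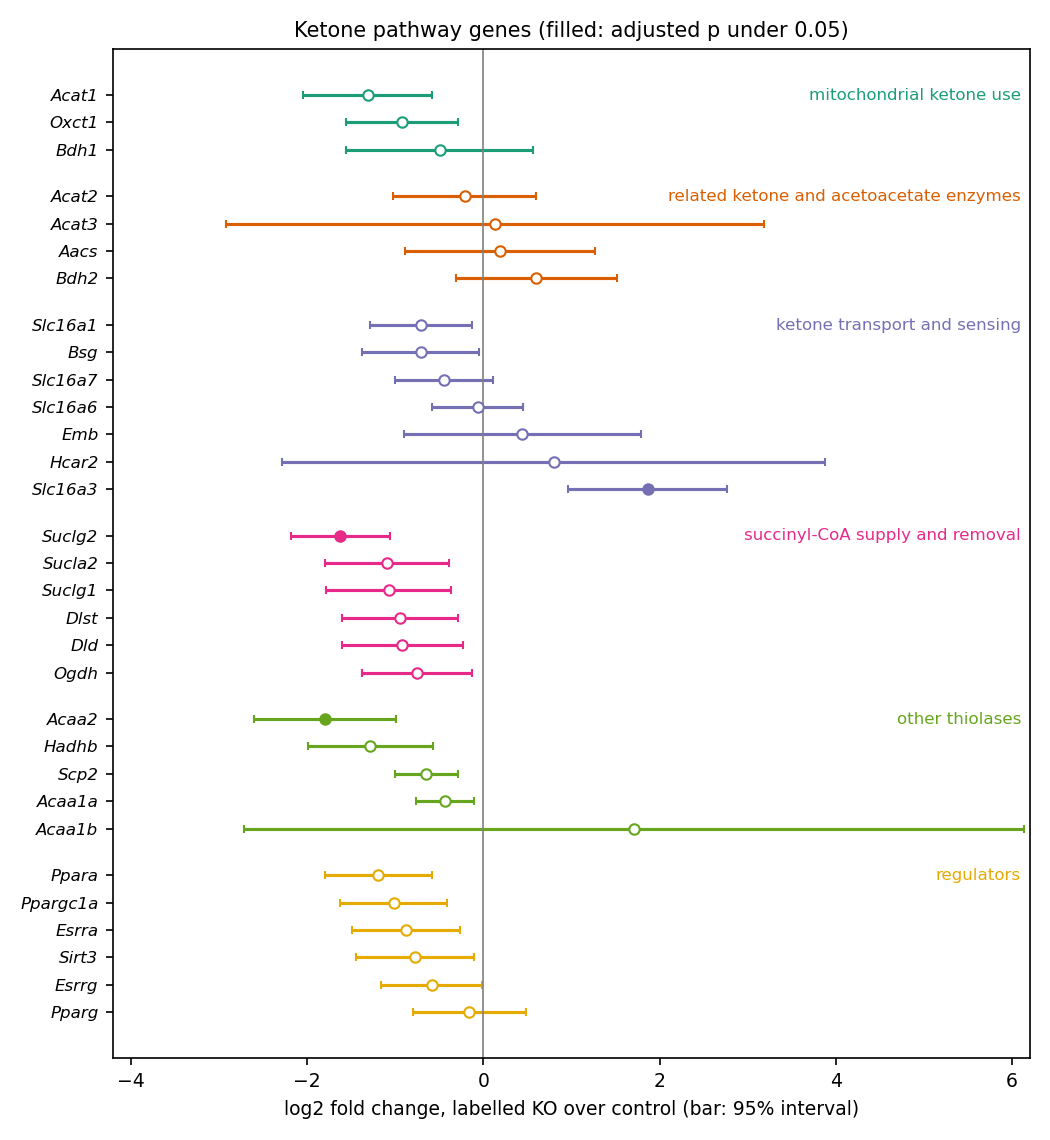
Log2 fold change (horizontal axis, labelled KO over control) with its 95% interval for Bdh1, Oxct1, Acat1 and 28 genes around them, grouped by list. Filled symbols passed edgeR's test at an adjusted p of 0.05: Slc16a3 on the higher side, Suclg2 and Acaa2 on the lower.

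The 6 related enzymes examined were each less abundant than Bdh1 in every library, the highest value being 30.3 CPM for Aacs in control 3. Oxct2a and Oxct2b, CoA transferases of testis, had 0 reads in all 6 libraries, which allows up to 0.0840 to 0.110 CPM in the libraries labelled KO and 0.122 to 0.147 CPM in control for each. Acat2, the cytosolic thiolase of sterol synthesis, held 7.49, 12.3 and 7.05 CPM in the libraries labelled KO 1, 2 and 3, against 8.05, 8.05 and 15.0 CPM in control 1, 2 and 3. Its level was highest in control 3 and, among the libraries labelled KO, in KO 2. The FPKM ratio of Acat1 to Acat2 was 31.1, 10.1 and 28.3 in the libraries labelled KO, against 66.2, 67.1 and 21.0 in control, so the mitochondrial thiolase was the more abundant in each. Acat3 is a close copy of Acat2, and how reads were divided between them is not known. Aacs, which activates acetoacetate in the cytosol for lipid synthesis, held 20.3, 27.1 and 13.3 CPM in the libraries labelled KO, against 13.0, 9.78 and 30.3 CPM in control. Bdh2, a cytosolic dehydrogenase, held 1.90 to 2.56 CPM in the libraries labelled KO and 1.23 to 1.99 CPM in control. Of the 4 tested genes 0 passed edgeR's test, against 3.7% of all genes, and 0 had an unadjusted p under 0.05, against 25.9%. DESeq2 called 0, against 15.5% of its genes, and limma on log2(FPKM + 1) called 0, against 864 of 14466. With only 4 genes, counts of 0 do not set the list apart from all genes.

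Among carriers, the main ketone transporter and the lactate exporter had log2 fold changes of opposite sign. Slc16a1 encodes MCT1, which carries lactate, pyruvate and ketone bodies across the plasma membrane, and it held 395, 238 and 365 CPM in the libraries labelled KO 1, 2 and 3, against 635, 578 and 423 CPM in control 1, 2 and 3. The groups did not overlap, and the gene missed the threshold of edgeR's test (log2 fold change -0.71, SE 0.25, adjusted p = 0.131), passing without control 3 (adjusted p = 0.0387) and with DESeq2 (adjusted p = 0.0313). Bsg, the chaperone that brings MCT1 and MCT4 to the membrane, stood at 946 ± 192 CPM in the libraries labelled KO and 1550.0 ± 454 CPM in control (edgeR adjusted p = 0.168, and 0.0299 without control 3). Its groups overlapped, with KO 1 and KO 3 at 1068 and 1045 CPM against 1044 CPM in control 3. Slc16a3 encodes MCT4, a carrier suited to lactate export, and it rose (edgeR log2 fold change 1.87 with an SE of 0.38, adjusted p = 0.0498), with 28.9, 28.1 and 13.9 CPM in the libraries labelled KO, against 4.22, 6.17 and 9.05 CPM in control. That call stood at the threshold. It was lost when KO 1, KO 2, KO 3, control 1 or control 2 was left out (adjusted p = 0.0729 to 0.195) and with library totals in place of TMM (adjusted p = 0.0573). Slc16a7, which encodes MCT2, was at 4.97, 6.16 and 4.78 CPM in the libraries labelled KO and 6.18, 6.79 and 8.68 CPM in control, and did not pass (adjusted p = 0.282). The remaining genes of the list, Slc16a6, Emb and the hydroxybutyrate receptor Hcar2, also overlapped between genotypes, as Bsg did.

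Succinyl-CoA is the CoA donor of SCOT, and all 6 genes that make or consume it in the tricarboxylic acid cycle had a lower fitted level, with a median log2 fold change of -1.01. Suclg2, the GTP-forming beta subunit of succinyl-CoA ligase, fell, with 80.6, 55.6 and 82.5 CPM in the libraries labelled KO 1, 2 and 3, against 171, 281 and 220.1 CPM in control 1, 2 and 3 (edgeR log2 fold change -1.62 with an SE of 0.24, adjusted p = 0.0252). Control 3 was not the lowest control library here, unlike for the 3 ketone enzymes. The ATP-forming subunit Sucla2 stood at 398 ± 110.3 CPM in the libraries labelled KO and 846 ± 228 CPM in control (log2 fold change -1.09, adjusted p = 0.0856, and 0.0205 without control 3). The shared alpha subunit Suclg1 stood at 136 ± 36.0 CPM in the libraries labelled KO and 287 ± 89.2 CPM in control (log2 fold change -1.07, adjusted p = 0.0905, and 0.0177 without control 3). Ogdh, Dlst and Dld, the subunits of 2-oxoglutarate dehydrogenase, which makes succinyl-CoA, had log2 fold changes of -0.75, -0.94 and -0.92 and did not pass (adjusted p = 0.135, 0.0964 and 0.109, and 0.0248, 0.0202 and 0.0268 without control 3). For all 6 genes the groups did not overlap, with KO lower, against 14.5% of all genes tested. DESeq2 called all 6 lower, against 8.29% of all genes, and so did edgeR without control 3, against 12.9%. The call of Suclg2 was lost without any other single library (adjusted p = 0.0529 to 0.0966).

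Of the 5 other thiolases, 1 fell, against 1.09% of all genes tested, and 4 did not pass. Acaa2, the mitochondrial thiolase of medium-chain fatty acid oxidation, fell, with 364, 171 and 328 CPM in the libraries labelled KO 1, 2 and 3, against 1057, 1219 and 714 CPM in control 1, 2 and 3 (edgeR log2 fold change -1.79 with an SE of 0.34, adjusted p = 0.0421). Leaving out KO 1, KO 2, KO 3, control 1 or control 2 ended that call (adjusted p = 0.104 to 0.169). Hadhb, the thiolase subunit of the trifunctional protein, stood at 1114 ± 324 CPM in the libraries labelled KO and 2706 ± 633 CPM in control, a log2 fold change of -1.28 that lay close to that of Acat1 (adjusted p = 0.0665, and 0.0202 without control 3). The peroxisomal thiolase genes Scp2 and Acaa1a had log2 fold changes of -0.65 and -0.43 (adjusted p = 0.0648 and 0.118). Without control 3 both were called lower by edgeR's test (adjusted p = 0.0196 for Scp2). Of the 5 thiolases 4 were called lower without control 3, against 12.9% of all genes. Acaa1b, a near copy of Acaa1a, had 2.49 CPM or less in each library.

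Regulators of oxidative genes were lower in the fitted levels, without a call. Ppara, the fatty acid receptor that drives ketone synthesis genes in liver, held 71.9, 40.3 and 67.0 CPM in the libraries labelled KO 1, 2 and 3, against 147, 157 and 105 CPM in control 1, 2 and 3 (edgeR log2 fold change -1.19 with an SE of 0.26, adjusted p = 0.058, and 0.0184 without control 3). The coactivator gene Ppargc1a stood at 59.3 ± 16.4 CPM in the libraries labelled KO and 119.6 ± 26.65 CPM in control (adjusted p = 0.075, and 0.0213 without control 3). The receptor gene Esrra stood at 73.0 ± 19.3 CPM in the libraries labelled KO and 134 ± 33.0 CPM in control (adjusted p = 0.0984, and 0.0221 without control 3). Groups did not overlap, with KO lower, for these 3 genes, against 14.5% of all genes tested. They overlapped for Esrrg, Sirt3 and Pparg. Of the 6 regulators tested 0 passed, 5 had an unadjusted p under 0.05, against 25.9% of all genes, and DESeq2 called 3 lower, against 8.29%. Limma on log2(FPKM + 1) called 1 lower, against 335 of 14466 genes, and edgeR without control 3 called 5 lower, against 12.9%. Fgf21, a fasting hormone, was at 0.294 CPM or less in each library.

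**Figure D5:**
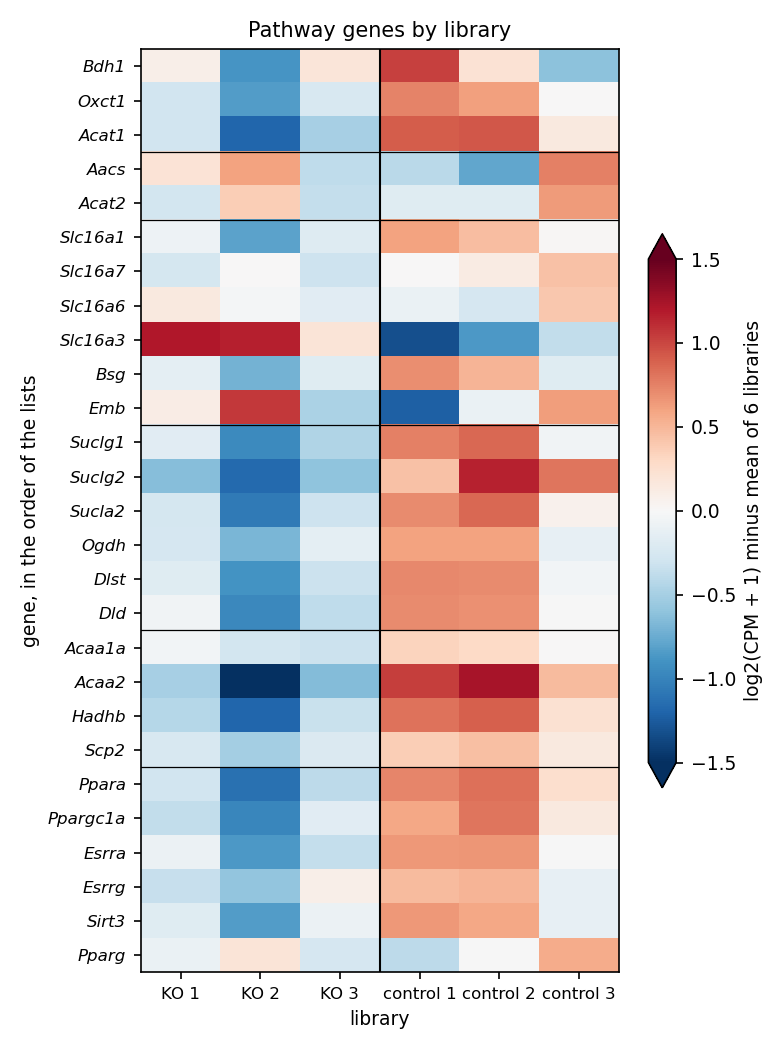
Level of each gene in each library as log2(CPM + 1) minus its mean over the 6 libraries (colour), for genes averaging 5 CPM or more, in the order of the lists, with the libraries labelled KO left of the line. KO 2 is the bluest column for Oxct1 and Acat1, and control 3 is paler than control 1 and control 2 for both.

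The genes most like the 3 enzymes were sought by Pearson's r of log2(CPM + 1) over the 6 libraries, among 9601 genes averaging 10 CPM or more. Closest to the mean of the 3 standardized profiles were Ethe1 (r = 0.9987), Wdtc1 (0.9981), Asrgl1 (0.9977), D5Ertd579e (0.9972), Stradb (0.9962) and Speg (0.996). Ethe1, a mitochondrial sulfur dioxygenase, held 16.75, 10.95 and 16.3 CPM in the libraries labelled KO 1, 2 and 3, against 28.1, 24.6 and 16.1 CPM in control 1, 2 and 3. Oxct1 was most like Mrpl42, Cox6a2 and Vwa8 (r = 0.9998, 0.9995 and 0.9992) and Acat1 most like Ndufa5, Echs1 and Etfdh (0.9996, 0.9994 and 0.9994). Bdh1 was most like Fbxo44, Zc3h7b and Mapk12 (r = 0.9941, 0.9932 and 0.9906). That the 3 sets share no gene is of little weight, each being 3 out of 9601 genes. With 6 libraries and 9601 genes such values are a description and carry no test.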

How the data were processed

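Per the labels' protocols, stranded total RNA libraries of remote left ventricle were sequenced. The submitters' processing notes name mm10, Bowtie2 and HISAT2, with no role for either tool. No source used here states the program that counted reads, its annotation or its use of strand. Per the file headers the authors deposited raw counts and FPKM values of 36780 transcripts in 6 libraries, with the transcript length as another property. The deposited FPKM followed counts over length and library total (ratio 0.962 to 0.988 at 50 or more reads). Columns were assigned by name to the control or the knockout sample.

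Counts were summed per symbol and tested by quasi-likelihood (edgeR 4.0.16 under R 4.3.3, TMM factors, filterByExpr, Benjamini-Hochberg adjustment over 14466 genes); an adjusted p under 0.05 is called rose or fell. Standard errors are the log2 fold change over the root of F. Ratios within a library used log2(CPM + 1) and exact permutation tests in SciPy 1.17.1. Alternatives were DESeq2 1.42.0, limma 3.58.1 on log2(FPKM + 1) or log2(FPKM + 0.1), other scalings and filters, single transcripts, a block for the library number and leaving out each library.

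The genes and lists were chosen with earlier results of these data known. The rule for named genes took Bdh1, Oxct1, Acat1, Nmrk2, the genes of 5 pathway lists (another list is not reported here) and the most similar profiles (6 for the mean, 3 per gene, leaving out unnamed predictions, clones, pseudogenes and small RNAs). Marker genes are named from lists fixed with them.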

Additional observations from a re-analysis of the deposited data

How the results depend on the processing

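The 3 enzymes kept a negative log2 fold change in every alternative run, except that Bdh1 was at 0.01 without control 1. The ranges without each library in turn were -0.81 to 0.01 for Bdh1, -1.11 to -0.76 for Oxct1 and -1.53 to -1.09 for Acat1. Oxct1 passed the threshold without control 3 (-1.11) and with DESeq2 (-0.94). Acat1 passed without control 3 (-1.53), with DESeq2 (-1.33), with limma on log2(FPKM + 1) (-1.21) or log2(FPKM + 0.1) (-1.22), above a mean of 10 CPM (-1.29), and, in a choice made after seeing the data, with KO 1 and control 3 both left out (-1.73). Tested as single transcripts, none of the 3 passed (adjusted p = 0.706, 0.195 and 0.155 for Bdh1, Oxct1 and Acat1), with 0.449% of 20265 transcripts called.

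Over all genes, 535 calls became 2318 with DESeq2 (1074 higher, 1244 lower), 864 and 807 with limma (pseudocounts of 1 and 0.1 FPKM), 2121 with KO 1 and control 3 both left out, and 3 (without KO 3) to 3628 (without control 3) with 1 library left out. Among the pathway genes, 3 calls became 15 with DESeq2, 5 with limma on log2(FPKM + 1), 6 above a mean of 10 CPM, 13 with KO 1 and control 3 both left out, and 0 to 18 with 1 library left out. Scaling by library totals moved the median of all genes to 0.11, beside which Acat1 was at -1.20. The library numbers are no pairing in the labels, and deviations of same-numbered libraries correlated at 0.307, -0.33 and -0.352. With the replicate block 6 genes and 0 pathway genes were called, and Bdh1, Oxct1 and Acat1 had -0.43, -0.92 and -1.32. The cause of these changes was not tested. Genes near 0 changed sign: with 1 library left out, Acat2 ran from -0.51 to 0.15, Aacs from -0.10 to 0.83 (-0.08 without KO 2), Fbxo44 from -0.48 to 0.02 and Mapk12 from -0.32 to 0.03, and without KO 1 and control 3 Acat2 was at 0.27. With 1 library left out, the differences within a library ran from 0.31 to 0.77 for Bdh1 minus Oxct1, 0.33 to 0.51 for Oxct1 minus Acat1 and -0.81 to -0.63 for Acat1 minus cardiomyocyte markers, and all 9 such differences kept their sign. Some of these moves exceed the SD of 1 group. Counting error was at most 2.43% for the 3 enzymes, Fgf21 had at most 6 reads in any library, and no alternative matched the depths.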
